A study of Homo sapiens with 9 samples.

Results

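AAGAB, the alpha- and gamma-adaptin binding protein, and 9 genes for the coats that it helps to build were followed across HEK293 cells that carried mutant or wild-type surfactant protein C (SP-C). The other 9 genes were AP1B1, AP1G1, AP1M1 and AP1S1 for the AP-1 adaptor complex, AP2A1, AP2B1, AP2M1 and AP2S1 for AP-2, and CLTC for the clathrin heavy chain. AAGAB was chosen by its large change between LQ and WT cells in earlier results of these data, and the others because they are the usual subunits of the complexes it serves. Only probe sets whose platform annotation named 1 gene were taken, which gave all 10 genes, of 19775 genes measured that way, and 25 probe sets. AP1B1 and AP2M1 had 1 probe set each, AP1M1 and AP2B1 had 2, AAGAB, AP1G1, AP1S1, AP2S1 and CLTC had 3, and AP2A1 had 4. The probe set with the highest mean level stood for the gene.

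The cells were HEK293, an established line from human embryonic kidney, and all 9 samples measured were transiently transfected, so every group carried an introduced SP-C gene. LQ cells received SP-C with the L188Q substitution, Ex4 cells received SP-C without exon 4, and WT cells received wild-type SP-C as the control, with 3 arrays per group. Transient transfection reaches a part of the cells, so each array averages over transfected and untransfected cells, and a change in fewer cells cannot be told apart from a smaller change in more of them. No untransfected or empty-vector cells were analysed here. The labels name no separate cultures for the replicates, so the p-values speak for the spread among these 9 arrays alone, and that spread may be technical.

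Clathrin-coated vesicles carry membrane proteins away from the plasma membrane and between the trans-Golgi network and endosomes. Clathrin does not bind cargo itself: adaptor complexes of several chains, AP-1 at the trans-Golgi network and endosomes and AP-2 at the plasma membrane, join cargo to the clathrin lattice. AAGAB is a cytosolic chaperone that binds the gamma and sigma chains of AP-1 and the alpha and sigma chains of AP-2 while these complexes are put together, and loss of AAGAB function in people causes a skin disorder, punctate palmoplantar keratoderma.

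Values are intensities made with MAS5, a linear signal per probe set scaled to a common mean per array. Array medians were 303.9 to 371.8 on LQ arrays, 316.1 to 434.3 on Ex4 arrays and 506.4 to 524.4 on WT arrays. The 3′ to 5′ ratio of the GAPDH control probe sets, a sign of RNA integrity, was 1.06 to 1.09 on LQ arrays, 0.956 to 1.23 on Ex4 arrays and 1.22 to 1.43 on WT arrays. For ACTB it was 1.15 to 1.23 on LQ arrays, 1.15 to 1.48 on Ex4 arrays and 1.05 to 1.27 on WT arrays. The 7 HEK293 genes examined (KRT8, KRT18, VIM, CDH2, NEFL, NEFM and LIN28B) were above the array median on all 9 arrays. Of other cell types, 2 of 5 measured alveolar type II genes, 1 of 6 fibroblast genes (COL1A1) and 1 of 5 blood genes (CD79A) were above the array median on all 9 arrays. Ex4 replicate 1 differed from the other Ex4 arrays. Across tested probe sets its mean correlation was 0.906 with them and 0.911 with the WT arrays. Ex4 replicate 2 had 0.926 with Ex4 and 0.871 with WT arrays, and Ex4 replicate 3 had 0.927 with Ex4 and 0.864 with WT arrays. The WT arrays had 0.892, 0.903 and 0.911 with their own group. On the SFTPC probe set 214387_x_at Ex4 replicate 1 had an intensity of 914.4, against 39.1 and 28.7 on the other Ex4 arrays, 108292 to 126185 on LQ arrays and 158962 to 239964 on WT arrays. On 205982_x_at it lay with the other Ex4 arrays, at 24666 against 23779 and 19160. On the remaining SFTPC probe sets it lay between the other Ex4 arrays. Ex4 replicate 1 is therefore given apart throughout.

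The main AAGAB probe set, 202852_s_at, was the one on which the gene was selected. Its intensity was 5549, 6148 and 5805 on LQ replicates 1, 2 and 3, 743.3, 5062 and 4809 on Ex4 replicates 1, 2 and 3, and 335.2, 876.7 and 1177 on WT replicates 1, 2 and 3. All LQ arrays lay above all Ex4 and WT arrays, whereas Ex4 replicate 1 lay inside the WT range and Ex4 replicates 2 and 3 lay far above it. Group means were 5834 ± 300 in LQ cells, 3538 ± 2424 in Ex4 cells and 796.2 ± 426.5 in WT cells (SD, n = 3 each), and Ex4 replicates 2 and 3 averaged 4936. Ranked against the other probe sets of the same array, this probe set stood at percentiles 90.6 to 91.6 on LQ arrays, at 61.6, 89.5 and 89.1 on Ex4 replicates 1, 2 and 3, and at 39.3, 62.5 and 68.3 on WT replicates 1, 2 and 3. WT replicate 1 was the only array on which it lay below the array's median.

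Levels were compared as log2(intensity + 16), in 1 limma model over all tested probe sets of the 9 arrays, and each change below is a difference on that scale. AAGAB was 3.02 ± 0.62 higher in LQ than in WT cells (SE), or 8.11-fold, a description without a test because this contrast chose the gene. It was 1.14 ± 0.62 higher in LQ than in Ex4 cells, again without a test, and 0.24 higher once Ex4 replicate 1 was left out. In Ex4 against WT cells, which share the WT arrays with the choice, the difference was 1.88 ± 0.62 (limma adjusted p = 0.11). Without Ex4 replicate 1 it was 2.78 (limma adjusted p = 0.0031). Ex4 replicate 1 was the Ex4 array inside the WT range of AAGAB, so leaving it out had to raise the difference. That adjusted p is therefore a description and not a separate test of a rise. The fit without Ex4 replicate 1 was the only one of the 9 fits with 1 array left out in which AAGAB passed in Ex4 against WT cells.

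The other AAGAB probe sets were dim and did not share the pattern. On 202851_at the intensity was 394.5, 158.4 and 409.1 on LQ arrays, 278.5, 179.6 and 1012 on Ex4 arrays, and 223.6, 225.6 and 410.7 on WT arrays, in replicate order. On 243284_at it was 271.0, 276.9 and 201.3 on LQ arrays, 385.5, 210.0 and 331.4 on Ex4 arrays, and 340.1, 145.4 and 404.3 on WT arrays. All groups overlapped on both, and 202851_at exceeded the array median on 3 arrays and 243284_at on 0. Their fitted LQ minus WT differences were 0.10 ± 0.63 and -0.13 ± 0.50. With the mean of the 3 probe sets in place of the brightest, the LQ minus WT difference of AAGAB was 0.99 ± 0.38.

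**Figure D1:**
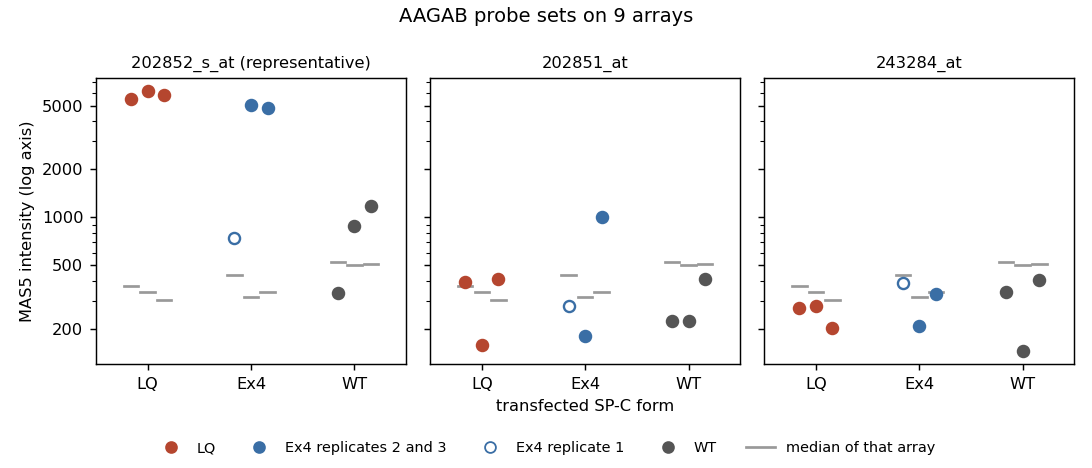
MAS5 intensity (log axis) of each AAGAB probe set on each array, by group from left to right LQ, Ex4 and WT; Ex4 replicate 1 is an open symbol and grey bars are array medians. On 202852_s_at the LQ arrays lie between 5549 and 6148 and the WT arrays between 335.2 and 1177, while the groups overlap on the other probe sets.

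RefSeq (GRCh38.p14) gives 2 start sites for AAGAB, on chromosome 15, and 1 for AP2B1, on chromosome 17. AP2B1 was the adaptor gene that passed the limma test in LQ against WT cells, on 1 of its 2 probe sets and close to the threshold. The promoter windows of both genes span 250 bases before to 50 bases after the start and so are partly transcribed. These windows are shown because AAGAB was selected and AP2B1 passed that test. They were read on the gene's strand, and capitals mark matches to the motifs searched.
AAGAB upstream start, chr15:67255149-67255448, minus strand: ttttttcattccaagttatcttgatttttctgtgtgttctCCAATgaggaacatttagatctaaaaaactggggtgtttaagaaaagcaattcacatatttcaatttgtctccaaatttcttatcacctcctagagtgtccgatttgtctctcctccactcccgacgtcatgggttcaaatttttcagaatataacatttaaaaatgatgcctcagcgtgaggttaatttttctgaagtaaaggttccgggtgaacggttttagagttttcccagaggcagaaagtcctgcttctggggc
AAGAB downstream start, chr15:67254612-67254911, minus strand: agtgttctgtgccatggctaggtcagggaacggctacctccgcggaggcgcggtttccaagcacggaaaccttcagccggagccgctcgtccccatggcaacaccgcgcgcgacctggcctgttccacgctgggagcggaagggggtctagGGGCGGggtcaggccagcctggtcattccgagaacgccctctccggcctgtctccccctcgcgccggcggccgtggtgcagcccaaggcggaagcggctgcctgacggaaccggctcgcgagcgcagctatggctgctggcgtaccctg
AP2B1, chr17:35587072-35587371, plus strand: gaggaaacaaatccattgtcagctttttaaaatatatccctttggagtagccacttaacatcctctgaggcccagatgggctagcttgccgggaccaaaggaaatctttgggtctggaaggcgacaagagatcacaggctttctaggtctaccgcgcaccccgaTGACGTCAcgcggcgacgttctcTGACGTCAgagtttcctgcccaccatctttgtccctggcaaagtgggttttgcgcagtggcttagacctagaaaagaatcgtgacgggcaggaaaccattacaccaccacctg
The capitals are 1 CCAAT in the first window, 1 GC box (GGGCGG) in the second and 2 copies of the cAMP response element TGACGTCA in the third. The windows had 38.3%, 69.7% and 51.7% G and C, against a median of 58.7% over 35116 promoters.

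Windows were found for 9 of the 10 genes, 10 in all, and none was found for AP1M1. On both strands, TGACGTCA stood in 1 of the 10 windows (1.85% of all promoters), CCAAT in 4 (34.6%) and GGGCGG in 7 (45.0%). Motifs linked to the unfolded protein response and to lysosomal genes were searched too, since misfolded SP-C is the setting of the series. TGACGTGG, the core of the XBP1 and ATF6 site, stood in 0 windows (0.729% of all promoters), and TCACGTGA, the core of the lysosomal CLEAR element, in 0 (0.98%). The endoplasmic reticulum stress element, CCAAT and CCACG 9 bases apart, also stood in 0 (0.0769%). A match here is only a match of letters.

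On the probe set that stood for each gene, 8 of the 9 adaptor and clathrin genes were above the array median on all 9 arrays, and AP1S1 was above it on 8. Of the 9, 1 changed in LQ against WT cells (limma, adjusted p under 0.05), where 7.32% of 14018 genes were called. That gene was AP2B1, which fell. LQ and WT arrays did not overlap for 3 of the 9, AP1M1 higher and AP1S1 and AP2B1 lower, against 38.9% of all genes. The median change of the 9 was 0.04 in LQ against WT cells, against -0.09 over all genes. Neither count sets the 9 apart from the other genes.

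For Ex4 against WT cells, limma called 0 of the 9 (0.0% of all genes), although 2 of the 9 and 3812 of 14018 genes had an unadjusted p under 0.05. None of the 9 had groups that did not overlap, against 24.0% of all genes. Their median change was -0.07, against -0.08 over all genes. In LQ against Ex4 cells, 0 of 9 were called (0.0% of all genes), with 0 of the 9 and 588 of 14018 genes at an unadjusted p under 0.05, and 0 of 9 did not overlap (12.4% of all genes). Both mutant comparisons use the same WT arrays, so their values are not independent.

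Without Ex4 replicate 1, limma called 3 of the 9 in LQ against WT cells (14.0% of all genes) and 2 of the 9 in Ex4 against WT cells (13.8%). The 3 were AP1M1 (adjusted p = 0.036), AP1S1 (0.037) and AP2B1 (0.023), by limma. The 2 were AP1M1, 0.77 higher (limma adjusted p = 0.018), and AP2B1, 0.85 lower (0.045), in Ex4 than in WT cells. The LQ minus WT differences themselves are the same in both fits, since no LQ or WT array was left out. Without WT replicate 1, limma called 2 of the 9 in LQ against WT cells (17.8% of all genes) and 1 in Ex4 against WT cells (13.8% of all genes). It called 0 of the 9 in LQ against WT cells without LQ replicate 1, 2 or 3, WT replicate 2 or WT replicate 3, fits that called 3 to 16 of all 14018 genes. It also called 0 of the 9 without Ex4 replicate 3, with 829 of 14018 genes called.

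**Figure D2:**
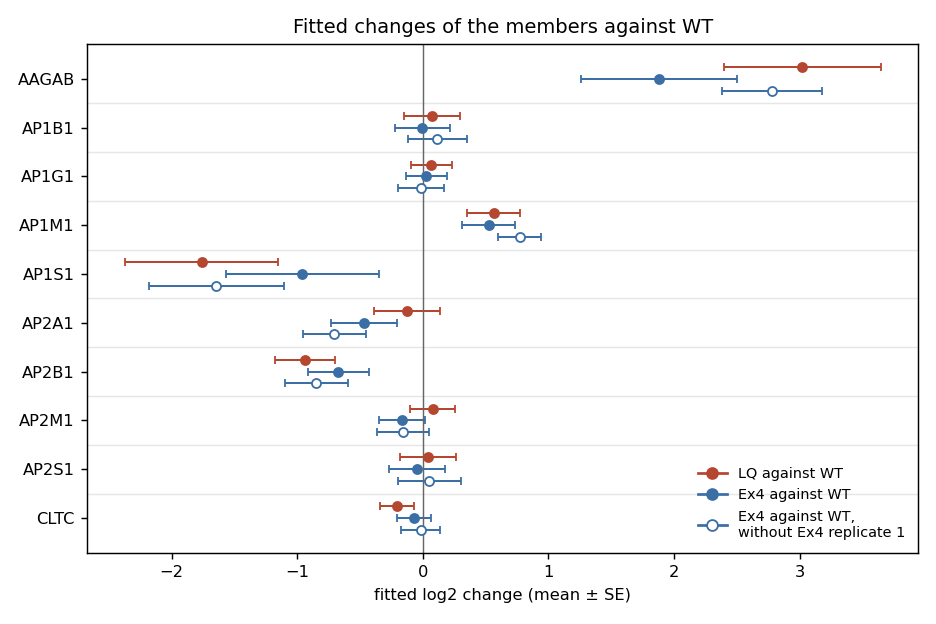
Fitted log2 change of each gene on its brightest probe set (points, with bars of ± 1 SE), for LQ against WT, Ex4 against WT, and Ex4 against WT without Ex4 replicate 1 (open points). AAGAB, selected on its LQ values, lies at 3.02, 1.88 and 2.78 in that order. In LQ against WT, AP1S1 lies at -1.76, AP2B1 at -0.94 and AP1M1 at 0.56, and the other adaptor and clathrin genes lie nearer 0.

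**Figure D3:**
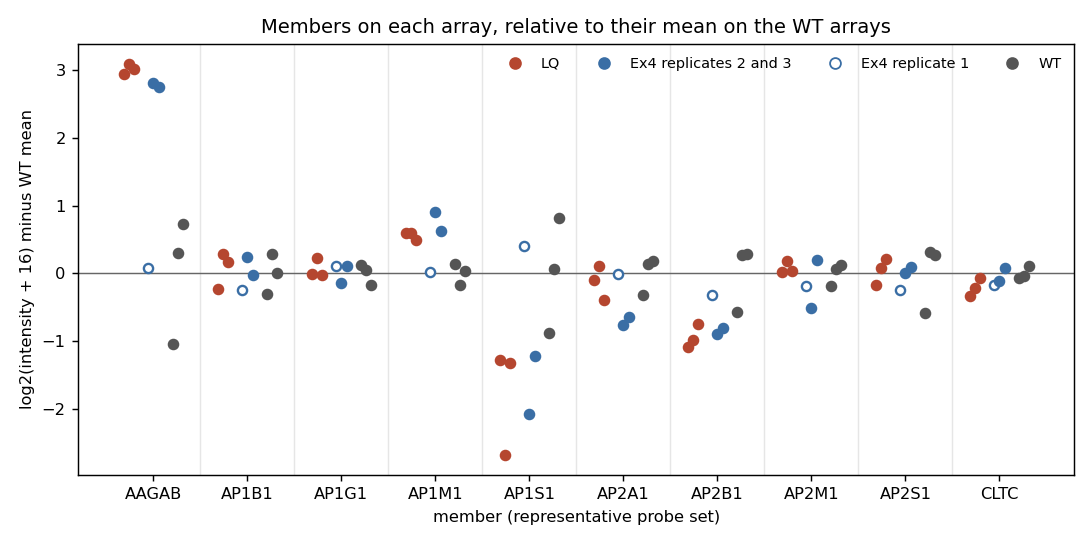
Log2 level of each gene on each array, as the difference from the mean of the WT arrays, with groups from left to right LQ, Ex4 and WT. AAGAB lies at 2.95 to 3.10 on LQ arrays, 0.08 on Ex4 replicate 1 and 2.74 to 2.82 on the other Ex4 arrays.

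AP2B1 codes for the beta chain of AP-2, which binds clathrin with its appendage and hinge. On its brighter probe set, 200615_s_at, the intensity was 4856, 5196 and 6091 on LQ arrays, 8204, 5531 and 5887 on Ex4 arrays, and 6951, 12417 and 12564 on WT arrays, in replicate order. Every LQ array lay below every WT array, Ex4 replicates 2 and 3 also lay below them, and Ex4 replicate 1 lay between WT replicate 1 and the other WT arrays. The change in LQ against WT cells was -0.94 ± 0.24, or 1.92-fold lower (limma adjusted p = 0.042), and in Ex4 against WT cells -0.67 ± 0.24 (limma adjusted p = 0.13). The second probe set, 200612_s_at, did not share the fall, with 2497, 2223 and 2398 on LQ arrays, 2464, 2011 and 2134 on Ex4 arrays, and 1126, 1908 and 7195 on WT arrays. Its groups overlapped, and its LQ minus WT difference was -0.07 ± 0.49 (limma adjusted p = 0.94).

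The call for AP2B1 was close to the threshold. Leaving out 1 array at a time, it passed without Ex4 replicate 1, Ex4 replicate 2 or WT replicate 1 (limma adjusted p = 0.023, 0.047 and 0.0038) and missed in the other 6 fits, with an adjusted p of up to 0.14. With the arrays centred on their medians the difference was -0.36 (limma adjusted p = 0.33), and with the mean of both probe sets -0.51 (limma adjusted p = 0.32). Array medians, the GAPDH ratio and the marker sums of fibroblast and blood genes differed between LQ and WT arrays as well. The 6 fibroblast genes summed to 3632 to 4637 on LQ arrays, 4928 to 6123 on Ex4 arrays and 7095 to 8122 on WT arrays, and the 5 blood genes to 1315 to 1555 on LQ arrays, 1538 to 1671 on Ex4 arrays and 2319 to 2975 on WT arrays. The 5 measured alveolar type II genes overlapped, with 3593 to 4652 on LQ arrays, 3265 to 3927 on Ex4 arrays and 3358 to 5523 on WT arrays. None of these lists was at 0, and their part in the difference was not tested.

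AP1M1 codes for the medium chain of AP-1, which reads tyrosine-based sorting signals in cargo. On 223024_at the intensity was 7516, 7475 and 6935 on LQ arrays, 5031, 9308 and 7660 on Ex4 arrays, and 5436, 4391 and 5050 on WT arrays, in replicate order. LQ arrays and Ex4 replicates 2 and 3 lay above all WT arrays, and Ex4 replicate 1 lay inside the WT range. The difference was 0.56 ± 0.21 in LQ against WT cells (limma adjusted p = 0.11) and 0.52 ± 0.21 in Ex4 against WT cells (limma adjusted p = 0.16). The second probe set, 223025_s_at, ran the other way, with 2356, 2294 and 2233 on LQ arrays, 2242, 2914 and 2108 on Ex4 arrays, and 2573, 3347 and 3015 on WT arrays. There all LQ arrays lay below all WT arrays, with a difference of -0.37 ± 0.19 (limma adjusted p = 0.23). With the mean of both probe sets the LQ minus WT difference of AP1M1 was 0.10 ± 0.17 (limma adjusted p = 0.72).

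AP1S1 codes for a small chain of AP-1, one of the chains that AAGAB binds. On 209635_at the intensity was 725.2, 262.7 and 697.9 on LQ arrays, 2359, 410.7 and 751.7 on Ex4 arrays, and 953.6, 1856 and 3136 on WT arrays, in replicate order. All LQ arrays and Ex4 replicates 2 and 3 lay below the WT arrays, and Ex4 replicate 1 lay within their range. The LQ minus WT difference was -1.76 ± 0.61, or 3.39-fold lower (limma adjusted p = 0.090), and the Ex4 minus WT difference was -0.96 ± 0.61 (limma adjusted p = 0.34). The Ex4 minus WT difference was -1.64 without Ex4 replicate 1 (limma adjusted p = 0.064), -0.41 without Ex4 replicate 2 and -0.55 without WT replicate 3 (limma adjusted p = 0.75 and 0.68). Its other probe sets also lay lower in LQ than in WT on every array: 205196_s_at had 597.0 to 631.9 on LQ arrays, 411.0 to 1095 on Ex4 arrays and 833.9 to 1460 on WT arrays, and 205195_at had 109.3 to 140.5 on LQ arrays, 231.7 to 722.6 on Ex4 arrays and 183.1 to 727.7 on WT arrays. Their LQ minus WT differences were -0.89 ± 0.36 (limma adjusted p = 0.13) and -1.64 ± 0.60 (0.10). All 3 AP1S1 probe sets thus separated LQ from WT arrays in 1 direction, and none passed the test.

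**Figure D4:**
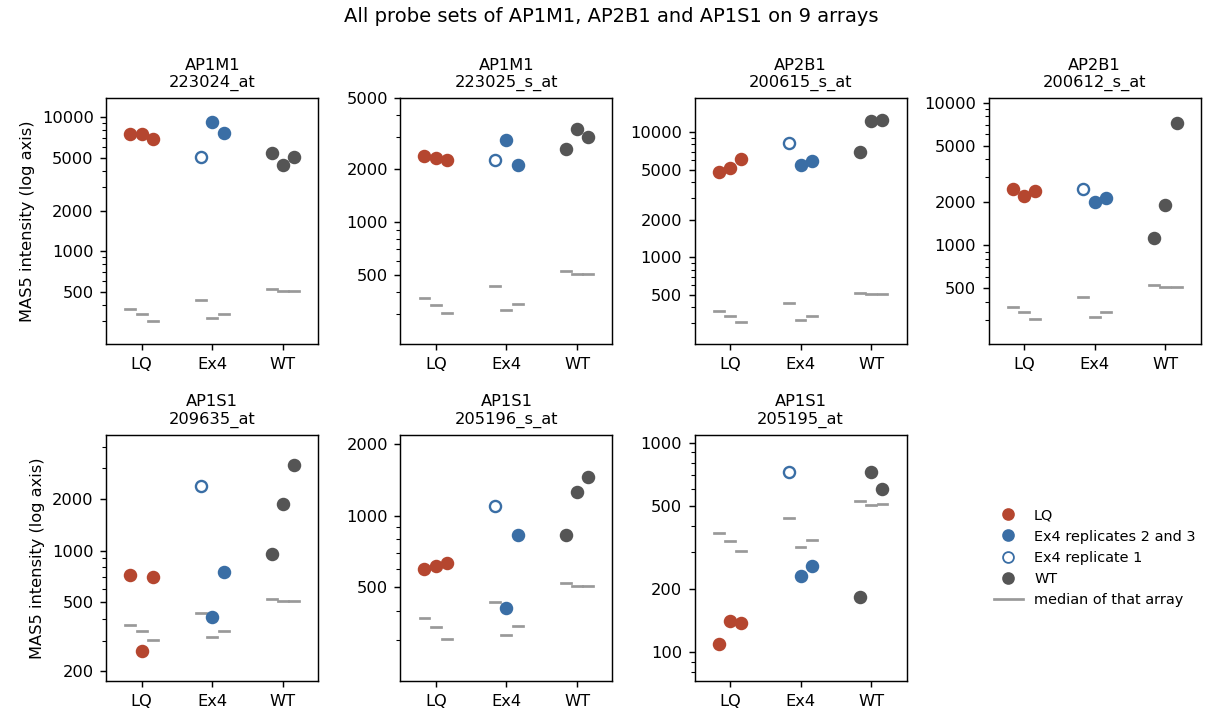
MAS5 intensity (log axis) of every probe set of AP1M1, AP2B1 and AP1S1 on each array, with groups from left to right LQ, Ex4 and WT; Ex4 replicate 1 is an open symbol and grey bars are array medians. LQ arrays lie below WT arrays on all 3 AP1S1 probe sets, below them on 1 of 2 AP2B1 probe sets, and on opposite sides of WT on the 2 AP1M1 probe sets.

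The remaining AP-1 chains did not pass the limma test in any comparison, and on the probe set that stood for each gene all groups overlapped. AP1B1, the beta chain of AP-1, had 2635, 3748 and 3457 on LQ arrays, 2602, 3669 and 3041 on Ex4 arrays, and 2501, 3773 and 3103 on WT arrays. The groups overlapped fully, with an LQ minus WT difference of 0.07 ± 0.22 (limma adjusted p = 0.85) and a 95% confidence interval of -0.40 to 0.55. AP1G1, the gamma chain that AAGAB binds, had 5028, 5932 and 4956 on LQ arrays, 5464, 4595 and 5430 on Ex4 arrays, and 5488, 5204 and 4496 on WT arrays on 225771_at. These also overlapped, with a difference of 0.07 ± 0.16 (limma adjusted p = 0.81) and an interval of -0.29 to 0.42, and its other 2 probe sets had LQ minus WT differences of 0.19 ± 0.19 and 0.14 ± 0.18.

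AP2A1, the alpha chain of AP-2 that AAGAB binds, had 1587, 1838 and 1297 on LQ arrays, 1702, 996.9 and 1083 on Ex4 arrays, and 1358, 1873 and 1943 on WT arrays on 234068_s_at. Ex4 replicates 2 and 3 lay below all LQ and WT arrays, while LQ and WT overlapped. The difference was -0.13 ± 0.26 in LQ against WT cells (limma adjusted p = 0.78) and -0.47 ± 0.26 in Ex4 against WT cells (limma adjusted p = 0.28), or -0.70 without Ex4 replicate 1 (limma adjusted p = 0.084). A second probe set, 223237_x_at, had 968.2, 1228 and 1062 on LQ arrays, 554.5, 1092 and 519.8 on Ex4 arrays, and 483.8, 458.8 and 1047 on WT arrays, and a difference of 0.80 ± 0.38 in LQ against WT cells (limma adjusted p = 0.19). WT replicate 3 lay within the LQ range, and the other 2 WT arrays did not. Both other AP2A1 probe sets overlapped, at -0.30 ± 0.39 and -0.04 ± 0.58 in LQ against WT cells.

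AP2M1, the medium chain of AP-2 that reads tyrosine-based sorting signals, had 15436, 17319 and 15693 on LQ arrays, 13470, 10775 and 17451 on Ex4 arrays, and 13406, 15942 and 16689 on WT arrays. All groups overlapped, and the LQ minus WT difference was 0.08 ± 0.18 (limma adjusted p = 0.80), with an interval of -0.32 to 0.47. AP2S1, the small chain of AP-2 that AAGAB binds, had 19371, 23093 and 25469 on LQ arrays, 18538, 21869 and 23463 on Ex4 arrays, and 14588, 27262 and 26289 on WT arrays on 211047_x_at. WT replicate 1 was the lowest array, and the difference was 0.04 ± 0.23 (limma adjusted p = 0.92), with an interval of -0.45 to 0.53. Its other probe sets gave 0.13 ± 0.25 and -0.41 ± 0.21 (limma adjusted p = 0.75 and 0.22).

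CLTC, the heavy chain that forms the legs of the clathrin triskelion, had the highest intensities of the 10 genes. It had 46977, 50997 and 56457 on LQ arrays, 52770, 54755 and 62565 on Ex4 arrays, and 56249, 57974 and 63682 on WT arrays on 200614_at. LQ and WT overlapped by 1 array, LQ replicate 3, and the difference was -0.21 ± 0.14 in LQ against WT cells (limma adjusted p = 0.33), with an interval of -0.50 to 0.09. Its 2 other probe sets, with intensities of 3.6 to 293.5 on all arrays, were the only probe sets of the 10 genes that did not pass the filter on low values. Intensities of different probe sets are not comparable as transcript amounts, so this order is not an order of abundance.

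Between the mutants, the intervals of the LQ minus Ex4 difference were -0.32 to 0.40 for AP1G1, -0.40 to 0.56 for AP1B1, -0.42 to 0.50 for AP1M1 and -2.13 to 0.53 for AP1S1. They were -0.23 to 0.92 for AP2A1, -0.79 to 0.26 for AP2B1, -0.15 to 0.64 for AP2M1, -0.40 to 0.58 for AP2S1 and -0.44 to 0.16 for CLTC. The interval was narrowest for CLTC and widest for AP1S1, and all 9, each on the gene's brightest probe set, included 0. These intervals come from the fit with Ex4 replicate 1 kept. For AP1S1 the difference was -0.80 there, and -1.354 to -0.115 with 1 array left out. Of the other probe sets of these 9 genes that passed the filter, only 205195_at of AP1S1 had an interval that excluded 0, -2.66 to -0.04. Its difference was -1.35 ± 0.60, and every LQ array lay below every Ex4 array. Ex4 replicate 1 was far the highest Ex4 array there, at 722.6 against 231.7 and 257.5 on replicates 2 and 3. This probe set was also dim, above the array median on only 3 of 9 arrays. On 225754_at of AP1G1, at 0.23 ± 0.18, every LQ array lay above every Ex4 array. No limma adjusted p was under 1.0.

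Other genes of the clathrin pathway were counted to place AAGAB and the 9 subunits. Of 65 genes listed, 7 were not analysed here because no probe set named them alone, 2 fell below the filter and 56 were tested. In LQ against WT cells 3 rose and 0 fell by limma, a background of 7.32% of all genes being called. Of the 56, limma called 0 in Ex4 against WT cells (0.0% of all genes). There 13 of the 56 had an unadjusted p under 0.05, beside 3812 of 14018 genes. In LQ against Ex4 cells it called 0 of 56 (0.0% of all genes). There 3 of the 56 had an unadjusted p under 0.05, beside 588 of 14018 genes. The median change in LQ against WT cells was 0.14, against -0.09 over all genes. Over all genes this median depended on the filter on low values, at -0.24 with no filter and 0.01 with the filter at percentile 60. Of the 56 differences 34 lay above 0 and 22 below, where 7903 of 14018 genes lay below 0. The median in Ex4 against WT cells, which share the WT arrays, was 0.08, against -0.08 over all genes. Without Ex4 replicate 1, 7 of 56 were called in LQ against WT cells (5 higher, 2 lower) and 3 in Ex4 against WT cells (1 higher, 2 lower), beside 14.0% and 13.8% of all genes. Without WT replicate 1 the counts were 8 in LQ against WT cells and 9 in Ex4 against WT cells, beside 17.8% and 13.8% of all genes. Without LQ replicate 1, 2 or 3, WT replicate 2 or WT replicate 3, limma called 0 of the 56 in LQ against WT cells and 3 to 16 of all 14018 genes, and without Ex4 replicate 3 it called 1 of the 56 and 829 of all genes.

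The 3 genes that rose were CLINT1 (epsinR), an adaptor at the trans-Golgi network and endosomes, AP3B2, the beta chain of the neuronal AP-3 complex, and AP4E1, the epsilon chain of AP-4. On 201769_at CLINT1 had 13738, 14313 and 15343 on LQ arrays, 14712, 12625 and 16604 on Ex4 arrays, and 9024, 9876 and 9914 on WT arrays. On that probe set both mutant groups lay above WT on every array, with a difference of 0.59 ± 0.15 in LQ against WT cells (limma adjusted p = 0.040) and 0.60 ± 0.15 in Ex4 against WT cells (limma adjusted p = 0.080). Its other probe sets overlapped: 201768_s_at had 6828 to 8007 on LQ arrays, 4608 to 7821 on Ex4 arrays and 5080 to 8184 on WT arrays, and 230609_at had 516.6 to 611.1 on LQ arrays, 437.9 to 679.4 on Ex4 arrays and 325.3 to 692.2 on WT arrays. With the mean of its probe sets CLINT1 did not pass, at 0.39 ± 0.16 in LQ against WT cells (limma adjusted p = 0.13).

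On 228164_at AP4E1 had 3439, 2964 and 2902 on LQ arrays, 3547, 3376 and 2785 on Ex4 arrays, and 2374, 1626 and 1274 on WT arrays. Mutant arrays lay above all WT arrays there, and the LQ minus WT difference was 0.86 ± 0.23 (limma adjusted p = 0.048). The other 2 AP4E1 probe sets that passed the filter ran the other way, with every LQ array below every WT array. The values on 220229_s_at were 533.4, 420.9 and 208.0 on LQ arrays, 1521, 186.8 and 380.3 on Ex4 arrays, and 1389, 1053 and 740.2 on WT arrays. On 241174_at they were 180.7, 224.3 and 208.7 on LQ arrays, 124.4, 235.9 and 364.9 on Ex4 arrays, and 322.4, 364.1 and 820.9 on WT arrays. With the mean of its probe sets AP4E1 was lower in LQ than in WT cells, at -0.57 ± 0.25 (limma adjusted p = 0.15).

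AP3B2 was dim on 1570032_at, with 563.6, 850.7 and 618.4 on LQ arrays, 667.1, 483.7 and 590.1 on Ex4 arrays, and 204.1, 229.9 and 366.1 on WT arrays. It was above the array median on 6 of 9 arrays, and the LQ minus WT difference was 1.32 ± 0.36 (limma adjusted p = 0.048). On its second probe set, 205678_at, the groups overlapped, with 452.6 to 699.1 on LQ arrays, 244.2 to 514.0 on Ex4 arrays and 213.3 to 588.5 on WT arrays. With the mean of both AP3B2 did not pass, at 1.1 ± 0.36 (limma adjusted p = 0.073). When 1 array was left out at a time, CLINT1 passed in 4 of 9 fits, AP4E1 in 2 and AP3B2 in 1. CLINT1 was lost without any LQ array, WT replicate 2 or WT replicate 3, with a limma adjusted p of 0.10 to 0.15. AP4E1 passed without Ex4 replicate 1 or WT replicate 1 and AP3B2 without Ex4 replicate 1, with a limma adjusted p of 0.035, 0.0072 and 0.035, and their highest adjusted p were 0.15 and 0.16.

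In the groups where no gene passed, the 2 largest LQ minus WT differences were read. Among other clathrin chains these were CLTCL1, a second heavy chain (-0.87 ± 0.25, limma adjusted p = 0.055), and CLTB, a light chain (0.43 ± 0.20, limma adjusted p = 0.18). Among cargo receptors they were M6PR, which carries lysosomal enzymes (-0.92 ± 0.28, limma adjusted p = 0.064), and EGFR, the epidermal growth factor receptor (0.64 ± 0.23, limma adjusted p = 0.096). M6PR had 2949, 3350 and 3281 on LQ arrays, 4971, 2525 and 4039 on Ex4 arrays, and 4008, 7536 and 7311 on WT arrays, so LQ arrays lay below all WT arrays. Among endocytic accessory proteins they were BIN1, which bends membrane (1.13 ± 0.65, limma adjusted p = 0.27), and PICALM, an adaptor for SNARE proteins (0.69 ± 0.20, limma adjusted p = 0.056).

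Among regulators of AP-1 and AP-2 these were FCHO2, which starts coated pits (0.72 ± 0.30, limma adjusted p = 0.14), and AP1AR, which links AP-1 to a kinesin motor (0.36 ± 0.29, limma adjusted p = 0.43). Among uncoating proteins they were SYNJ1, a phosphoinositide phosphatase (0.63 ± 0.22, limma adjusted p = 0.087), and DNAJC6, auxilin (0.28 ± 0.17, limma adjusted p = 0.30). Among paralogous subunits of AP-1 and AP-2 they were AP1S2, a small chain, and AP1G2, a gamma chain, at 0.22 ± 0.21 and -0.14 ± 0.20, and for AP-5 they were its beta chain AP5B1 and small chain AP5S1, at 0.26 ± 0.43 and -0.15 ± 0.27. These 4 had a limma adjusted p of 0.51 to 0.74.

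**Figure D5:**
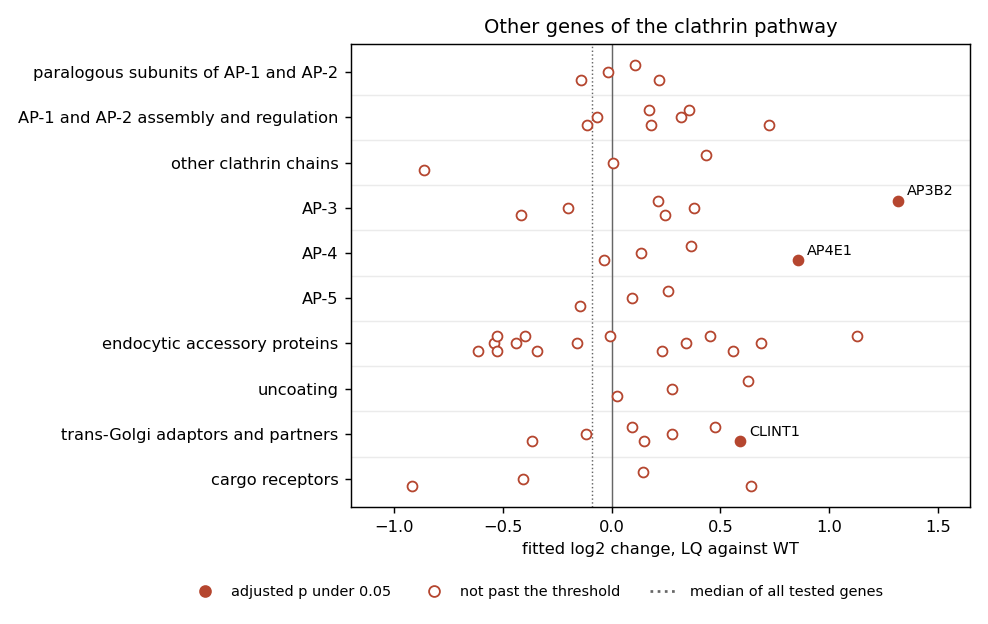
Fitted log2 change in LQ against WT cells for each of 56 tested genes of the clathrin pathway, by group; filled points passed an adjusted p of 0.05 and the dotted line is the median of all tested genes. The 3 filled points are AP3B2 at 1.32, AP4E1 at 0.86 and CLINT1 at 0.59, and no point on the lower side is filled.

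The 5 genes whose pattern over the 9 arrays was most like AAGAB were FOXD3-AS1, AKNA, GAB2, DYNC2I1 and SLC27A4, out of 14017 compared. Likeness was the root mean square difference in log2 level from AAGAB after each gene was centred on its own mean, and it was 0.631, 0.637, 0.698, 0.742 and 0.776 in that order. The median over genes was 1.561, and AAGAB's own spread on the same scale was 1.511. SLC27A4 had 1493, 1585 and 1676 on LQ arrays, 929.8, 2440 and 2282 on Ex4 arrays, and 235.3, 774.4 and 956.1 on WT arrays, so Ex4 replicate 1 lay below the highest WT array. GAB2 had 1129, 662.2 and 998.5 on LQ arrays, 187.1, 1105 and 1150 on Ex4 arrays, and 252.2, 215.3 and 298.3 on WT arrays, with Ex4 replicate 1 the lowest array. SLC27A4 exceeded the array median on 8 arrays and the other 4 genes on only 4 or 5, and the 9 subunits lay between 1.238 (AP1M1) and 2.399 (AP1S1).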

How the data were processed

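RNA from HEK293 cells was measured on 9 Affymetrix arrays, 3 per group. The deposited values are linear intensities per probe set from MAS5, per the submitters' processing notes, with no version given in the sources used here. The table lists 54675 probe sets, 62 of them controls. Of the other 54613, 41091 carried 1 gene symbol in the platform annotation, 1801 several and 11721 none, and only those with 1 were named, with symbols updated through a RefSeq table. Detection calls were not used.

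Values were used as log2(intensity + 16), so fold changes of dim genes are understated. A filter removed probe sets whose mean lay under percentile 40 and kept 32768, and the brightest probe set stood for each of 14018 genes. All 9 arrays entered 1 linear model in limma 3.58.1 under R 4.3.3, moderated by eBayes with its variance trend on and with no term for replicate numbers. Two-sided p-values were adjusted by Benjamini-Hochberg over all tested probe sets of a contrast, at a threshold of 0.05. The model was tested on simulated data. Precision is limited by the number of arrays.

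The genes described, the pathway list and the marker lists were chosen with earlier results of these data known. From the pathway list, genes that passed the test in LQ against WT cells were named, or else the 2 largest differences in each group of the list, and the 5 genes most like AAGAB were named by root mean square difference. Alternatives were pseudocounts of 1 and 64, quantile normalization, median centring, filters at percentile 60 or none, eBayes without the trend, the compared arrays alone, array weights, a block for replicate number, averaging each gene's probe sets, and each array left out in turn. Promoter windows came from a RefSeq table of GRCh38.p14.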

Additional observations from a re-analysis of the deposited data

How the results depend on the processing

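Over the 10 genes, 3 contrasts and 20 alternatives, 556 of 600 differences kept their direction and 44 reversed, 26 of them with 1 array left out, and no difference over 0.47 in size reversed. Scaling moved the whole table: the median LQ minus WT difference over tested probe sets was -0.15 as deposited, 0.04 with quantile normalization and 0.44 with median centring (Ex4 minus WT -0.12, 0.02 and 0.37). Genes called higher and lower in LQ against WT cells were 517 and 509 as deposited, 262 and 216 with quantile normalization, and 4057 and 170 with median centring. AAGAB was higher and AP2B1 and AP1S1 lower in LQ than in WT cells under every alternative run.

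Reversals in LQ against WT cells were AP1G1 -0.07, AP2A1 0.003, AP2M1 -0.067 and AP2S1 -0.053 with quantile normalization, AP2A1 0.46 and CLTC 0.38 with median centring, AP2A1 0.081 and AP2S1 -0.078 with the mean of probe sets, and AP2S1 -0.12 with array weights. Those in Ex4 against WT cells were AP1B1 0.48, AP2A1 0.018, AP2M1 0.32, AP2S1 0.44 and CLTC 0.42 with median centring, and AP1G1 -0.091 with quantile normalization and -0.069 with the mean of probe sets. In LQ against Ex4 cells they were AP1M1 -0.064 with array weights and -0.012 with the mean of probe sets. The cause was not tested. With 1 array left out, the ranges that crossed 0 were, in LQ against WT cells, AP1B1 -0.077 to 0.222, AP1G1 -0.015 to 0.128, AP2A1 -0.29 to 0.004, AP2M1 -0.016 to 0.142 and AP2S1 -0.25 to 0.20. For Ex4 against WT cells they were AP1B1 -0.15 to 0.14, AP1G1 -0.054 to 0.11, AP2M1 -0.34 to 0.005 and AP2S1 -0.34 to 0.11, and in LQ against Ex4 cells AP1B1 -0.042 to 0.227, AP1G1 -0.044 to 0.085, AP1M1 -0.21 to 0.23 and AP2S1 -0.01 to 0.20.

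Probe sets called in LQ against WT cells, 2231 as reported, were 1154 with quantile normalization, 8452 with median centring, 442 without the variance trend, 4035 with the compared arrays alone and 8580 with array weights, and 8 to 4993 with 1 array left out. Those called in Ex4 against WT cells, 4 as reported, were 10 with quantile normalization, 5106 with median centring, 2 with the compared arrays alone and 5287 with array weights, and 2 to 4433 with 1 array left out. Between the mutants they were 2 as reported, 1 without the variance trend and 2 to 3 with 1 array left out. Of the 9 subunits, 1 as reported, 3 were called in LQ against WT cells with median centring, all higher (AP1G1, AP1M1 and AP2M1, with AP2B1 lost), and 3 with the compared arrays alone and with array weights, AP1M1 higher and AP1S1 and AP2B1 lower, and 0 with no filter, no variance trend or the mean of probe sets, and 0 to 3 with 1 array left out. Of the 9, 0 as reported in Ex4 against WT cells, 1 was called with median centring and 2 with array weights, and 0 to 2 with 1 array left out. Of the other pathway genes, 3 as reported, 1 was called in LQ against WT cells with quantile normalization, 24 with median centring, 0 with no filter or no variance trend, 5 with the compared arrays alone and 13 with array weights, and 0 to 8 with 1 array left out. In Ex4 against WT cells, 0 as reported, they were 16 with median centring and 7 with array weights, and 0 to 9 with 1 array left out. Of all 14018 genes, those called in LQ against WT cells were 478 with quantile normalization, 4227 with median centring and 174 without the variance trend. They were 1771 with the compared arrays alone, 4006 with array weights, 1105 with the mean of probe sets and 3 to 2491 with 1 array left out. With no filter they were 661 of 19775. Those in Ex4 against WT cells were 2710 with median centring, 2566 with array weights and 0 to 1934 with 1 array left out.

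Same-numbered arrays of 2 groups had correlations of -0.083 to 0.191 in their deviations from the group means. Arrays with different numbers were not compared in this way, so whether the replicate numbers pair the samples was not settled. With the replicate block, limma called 2215 probe sets in LQ against WT cells and 4 in Ex4 against WT cells, and AP2B1 in LQ against WT cells had an adjusted p of 0.05.

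With 3 arrays per group, changes of probe sets that vary much among the arrays of a group, such as 209635_at of AP1S1, have wide intervals. Array medians differ between groups, so small differences depend on the scaling. Each gene rests on 1 to 4 probe sets. Their LQ minus WT differences took both signs for AAGAB, AP1M1, AP2A1, AP2S1 and AP4E1. For AP2B1, AP3B2 and CLINT1, LQ and WT arrays separated on the brightest probe set and overlapped on the others.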
